A study of Tegula funebralis with 16 samples.

Results

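Transcript abundance after heat stress was compared between snails of a southern and a northern Californian shore. The measure was the difference of heat effects, which is the log2 change from control to heat in animals from Aliso Beach (Orange County) minus the same change in animals from Slide Ranch (Marin County). The 8 libraries of these sites, out of 16 in the series, were taken because their replicates were known to lie close together, and their groups come from the labels. The other 8 come from Pigeon Point and La Jolla and enter only where their values are set beside a result. The species was the intertidal snail Chlorostoma (Tegula) funebralis, and each library was made from whole animals that were frozen and ground. Control animals of both sites were held in air at 15 °C for 5.5 hours. Heated animals spent the same 5.5 hours in air that warmed from 15 °C in steps of 3 °C until 34 °C, where it stayed. Each of the 4 groups (Aliso Beach control, Aliso Beach heat, Slide Ranch control, Slide Ranch heat) had 2 libraries. How many animals a library holds is not stated, so p-values measure only the spread between these libraries. Because the sites were chosen for close replicates, that spread may be too small. P-values may then be too low and intervals too narrow. Each region is represented here by 1 site, so site and region cannot be told apart. In whole animals, fewer cells of a type and less RNA per cell cannot be told apart.

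Heat damages the folding of proteins, and cells answer by making chaperones under the control of heat shock factor. HSP70 and its helpers, the J-domain proteins (HSP40) and BAG regulators, bind and refold unfolded chains, small heat shock proteins hold them soluble, and HSP90 matures signalling proteins. Snails of rocky shores meet such temperatures when low tide leaves them in the sun, and species and populations of these shores are known to differ in how warm it must be before chaperones are made and in how much of them they make.

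Recovered reads per library ran from 18237160 to 25814068 over the 8 libraries. The close replicates by which the sites were chosen show in these values: between 4.69% and 5.43% of contigs (assembled transcripts or parts of them) differed more than 2-fold between the 2 libraries of a group, against 25.7% to 38.6% at Pigeon Point and La Jolla. Of 15903 contigs, 14255 were tested, those whose normalised read counts averaged at least 10 over the 8 libraries, in limma on log2(value + 1), with Benjamini-Hochberg adjustment and a threshold of 0.05. All log2 changes below are on that scale, which understates changes of contigs with low counts. No sequences were at hand, and close copies of a gene, such as the HSP70 contigs, may share reads, so values of single copies are uncertain.

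No contig passed the threshold for a difference of heat effects in limma, 0.0% of those tested. The lowest adjusted p was 0.331. At an unadjusted p under 0.05 limma gave 1095 contigs, 7.68% of those tested, of which 461 (3.23%) had a more positive change at Aliso Beach and 634 (4.45%) a more negative one. In edgeR's quasi-likelihood test on the recovered reads there were 0 calls and 1098 contigs (7.7%) at an unadjusted p under 0.05, and the lowest adjusted p was 0.486. DESeq2 on the same reads called 35 contigs, 0.246% of those tested, 7 more positive (0.0491%) and 28 more negative (0.196%) at Aliso Beach, and gave 875 (6.14%) at an unadjusted p under 0.05. All 35 had an unadjusted p under 0.05 in limma, and 18 of them carried no informative name. The median standard error of the difference was 0.31 on the log2 scale and its median 95% interval reached 0.70 to either side. With 2 libraries per group a smaller difference of a typical contig could thus not be told from 0 even before adjustment. After adjustment larger differences did not pass either, such as -2.47 for SR_contig_18794_C3.1 (adjusted p = 0.331 in limma). The absence of calls therefore does not exclude differences above 0.70. Without Slide Ranch heat 1 limma called 3 contigs, without Slide Ranch heat 2 or without Aliso Beach control 2 it called 1, and without any other single library it called 0.

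Within each site heat changed many contigs. At Slide Ranch 335 contigs rose (2.35% of those tested) and 219 fell (1.54%), 3.89% in all. At Aliso Beach 227 rose (1.59%) and 179 fell (1.26%), or 2.85%. The number of calls fell when any 1 library of a site was left out, to between 240 and 353 at Slide Ranch and to between 204 and 240 at Aliso Beach. Both sites called 171 of the risen contigs (1.2% of those tested), which is 75.3% of the Aliso Beach rises and 51.0% of the Slide Ranch rises, and 93 of the fallen ones (0.652%), which is 52.0% and 42.5%. No contig (0.0%) was called at both sites with opposite signs. Of the 164 contigs that passed as risen only at Slide Ranch, 145 also had a positive change at Aliso Beach, and 71 had an unadjusted p under 0.05 for the difference itself. Of the 56 that passed as risen only at Aliso Beach these numbers were 48 and 27. Over all contigs 7.68% had an unadjusted p under 0.05 for the difference. Passing at only 1 site selects contigs whose changes differ in these same libraries. The counts of 71 and 27 therefore cannot show responses particular to a site. With the heat effect averaged over both sites, 576 contigs rose (4.04% of those tested) and 556 fell (3.9%). That total of 1132, or 7.94%, became 696 without Slide Ranch control 2 or Aliso Beach heat 1, 661 without Aliso Beach control 2 and 660 without Aliso Beach heat 2.

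**Figure D1:**
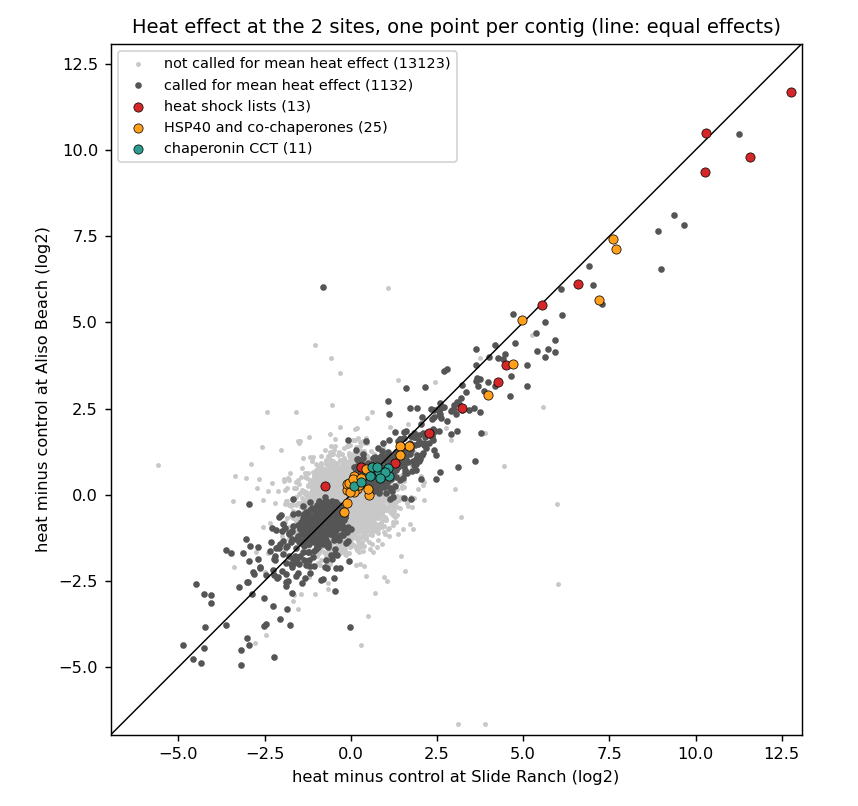
Heat effect (log2 change, heat minus control) of each tested contig at Slide Ranch (x axis) and Aliso Beach (y axis), with the line of equal effects and with the heat shock, HSP40 and chaperonin contigs in colour. Of the 30 contigs with an averaged rise of at least 4 and controls above 3 reads on average, 26 lie below the line, which marks a smaller rise at Aliso Beach.

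The largest averaged rise among named contigs was 12.23, in a contig named only heat shock protein. It belongs to a list of 3 tested contigs with other heat shock names. Of these 2 rose, where 4.04% of all contigs did, and the list median was 1.11. The contig not shown was called neither higher nor lower with heat, and its difference of heat effects was not below 0. SR_contig_18769_C3.1, named heat shock protein, had 31.3 and 36.9 normalised read counts in the Slide Ranch controls and 37.1 and 42.9 in those of Aliso Beach. In the heated libraries it had 240892 and 249849 at Slide Ranch and 140226 and 130043 at Aliso Beach. The controls were low at both sites, those of Aliso Beach slightly higher, and both heated Aliso Beach libraries were below both heated Slide Ranch libraries. The log2 rise was 12.77 ± 0.13 (SE) at Slide Ranch and 11.69 ± 0.13 at Aliso Beach. The difference of heat effects was -1.09 ± 0.18 (95% interval -1.50 to -0.67, unadjusted p = 0.000192 in limma), with an adjusted p of 0.497. Between the heated groups the level at Aliso Beach was lower by a log2 difference of -0.86 (adjusted p = 0.00364 in limma). SR_contig_31099, also named heat shock protein, went from 1108 and 1152 to 2911 and 2606 at Slide Ranch. At Aliso Beach it went from 1192 and 1150 to 2161 and 2299. Its difference of heat effects was -0.36 (95% interval -0.73 to 0.02).

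HSP70 was represented by 6 tested contigs, and all 6 rose with the heat effect averaged over the sites, as 4.04% of all contigs did. SR_contig_18771_C3.1 had 141 and 147 counts in the Slide Ranch controls, 529 and 232 in the Aliso Beach controls, 432797 and 460506 in the heated Slide Ranch libraries and 312637 and 307406 in the heated Aliso Beach libraries. Its Aliso Beach libraries were higher than those of Slide Ranch before heat and lower after it. Its difference of heat effects was -1.81 ± 0.41 (95% interval -2.74 to -0.87), which did not pass in limma (adjusted p = 0.499) and passed in DESeq2 (adjusted p = 0.000693). The controls differed by 1.28 (adjusted p = 0.0328 in limma), a comparison in which 7.13% of all contigs were called, and the heated groups by -0.53 (adjusted p = 0.244). This control difference rests on few libraries: it lost its call without either Slide Ranch control or without Aliso Beach control 1 (adjusted p 0.0743 to 0.143 in limma), and over all fits that left out a library it lay between 0.69 and 1.87.

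A second inducible HSP70 contig did not share that pattern. SR_contig_12347_C3.1 had 148 and 106 counts in the Slide Ranch controls and 51.9 and 59.8 in the Aliso Beach controls, and heat took it to 168072 and 149231 at Slide Ranch and to 84421 and 77939 at Aliso Beach. It was lower at Aliso Beach in both states, with no overlap between the sites. The log2 rises of 10.30 ± 0.17 and 10.48 ± 0.17 (SE) differed by 0.19 (95% interval -0.34 to 0.72), while the levels differed by -1.15 in controls (adjusted p = 0.00556) and by -0.97 after heat (adjusted p = 0.00582, limma). The control call was lost without Aliso Beach control 1 (adjusted p = 0.0581), and the sign of the small difference of heat effects turned without Slide Ranch control 1 (-0.055).

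The other HSP70 contigs were already abundant in controls. SR_contig_5144 had 949 and 788 counts in Slide Ranch controls, 850 and 720 in Aliso Beach controls, and 82036 and 84336 against 53997 and 53930 after heat, so that only the heated groups stood apart. Its heated level was lower at Aliso Beach by -0.62 (adjusted p = 0.0139 in limma), a call lost without Slide Ranch heat 2, Aliso Beach heat 1 or Aliso Beach heat 2 (adjusted p 0.0617 to 0.074). SR_contig_525 had 41472 and 33487 counts in controls of Slide Ranch and 45397 and 44042 in those of Aliso Beach, and reached 177345 and 184879 against 150101 and 161535 with heat. Its rise was 2.28 ± 0.16 and 1.80 ± 0.16, and neither the difference of -0.48 (95% interval -0.98 to 0.02) nor the heated levels passed the test (adjusted p = 0.373 in limma). The HSP70 relatives behaved unlike each other. SR_contig_2239_C3.1, named heat shock 70 kDa protein 4-like, a nucleotide exchange factor for HSP70, went from 1375 and 1183 to 14926 and 9387 at Slide Ranch and from 1577 and 1392 to 9120 and 7964 at Aliso Beach. SR_contig_851, named HSP70 protein 14, went from 442 and 364 to 547 and 447 at Slide Ranch and from 459 and 440.3 to 758 and 809.6 at Aliso Beach, and was the only one of the 6 with a higher heated level at Aliso Beach (0.66, adjusted p = 0.0207 in limma). The HSP70 14 call was lost without Slide Ranch heat 2, Aliso Beach heat 1 or Aliso Beach heat 2 (adjusted p 0.0712 to 0.116), and its averaged rise without Slide Ranch control 2, Slide Ranch heat 1, Aliso Beach control 2 or Aliso Beach heat 2 (adjusted p 0.0565 to 0.068).

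Small heat shock proteins, which hold unfolded chains without refolding them, rose in 3 of 3 tested contigs, where 4.04% of all contigs rose. After heat 2 of them were called lower at Aliso Beach, where 7.74% of all contigs were. SR_contig_5896_C3.1, named small heat shock protein 26, had 81.8 and 67.9 counts in Slide Ranch controls and 27.5 and 24.4 in Aliso Beach controls. With heat it reached 95610 and 92819 at Slide Ranch and 19068 and 16195 at Aliso Beach. Every Aliso Beach library was below both Slide Ranch libraries of the same treatment. The level at Aliso Beach was lower by -1.49 in controls (adjusted p = 0.000646) and by -2.42 after heat (adjusted p = 7.19e-05, limma), and the difference of heat effects of -0.93 ± 0.20 (95% interval -1.39 to -0.48) did not pass (adjusted p = 0.499). SR_contig_1049_C3.1 began much higher, at 7194 and 8967 counts at Slide Ranch and 8219 and 8702 at Aliso Beach, and rose to 181342 and 180398 against 115796 and 114799. Its controls overlapped and its heated groups did not, with a log2 difference of -0.65 between the latter (adjusted p = 0.0152 in limma), a call lost without Slide Ranch heat 2, Aliso Beach heat 1 or Aliso Beach heat 2 (adjusted p 0.0538 to 0.0824). The third, SR_contig_10392_C3.1, went from 939.9 and 690.3 to 41680 and 34260 at Slide Ranch and from 596 and 771 to 30017 and 31831 at Aliso Beach. Its rises of 5.55 ± 0.18 and 5.51 ± 0.18 differed by -0.04 (95% interval -0.62 to 0.54).

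HSP90 had 1 tested contig, SR_contig_806_C3.1. It had 6989 and 5146 counts in Slide Ranch controls and 8678 and 7058 in Aliso Beach controls, and 112778 and 117654 against 73985 and 76829 after heat. Both Aliso Beach controls were above both Slide Ranch controls, and both heated Aliso Beach libraries were below both heated Slide Ranch libraries. The difference of heat effects was -1.0 ± 0.24 (95% interval -1.54 to -0.45, adjusted p = 0.523 in limma). The controls differed by 0.38 (adjusted p = 0.206) and the heated groups by -0.61 (adjusted p = 0.0363), and the latter call was lost when any 1 of the 4 heated libraries was left out (adjusted p 0.0818 to 0.145).

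**Figure D2:**
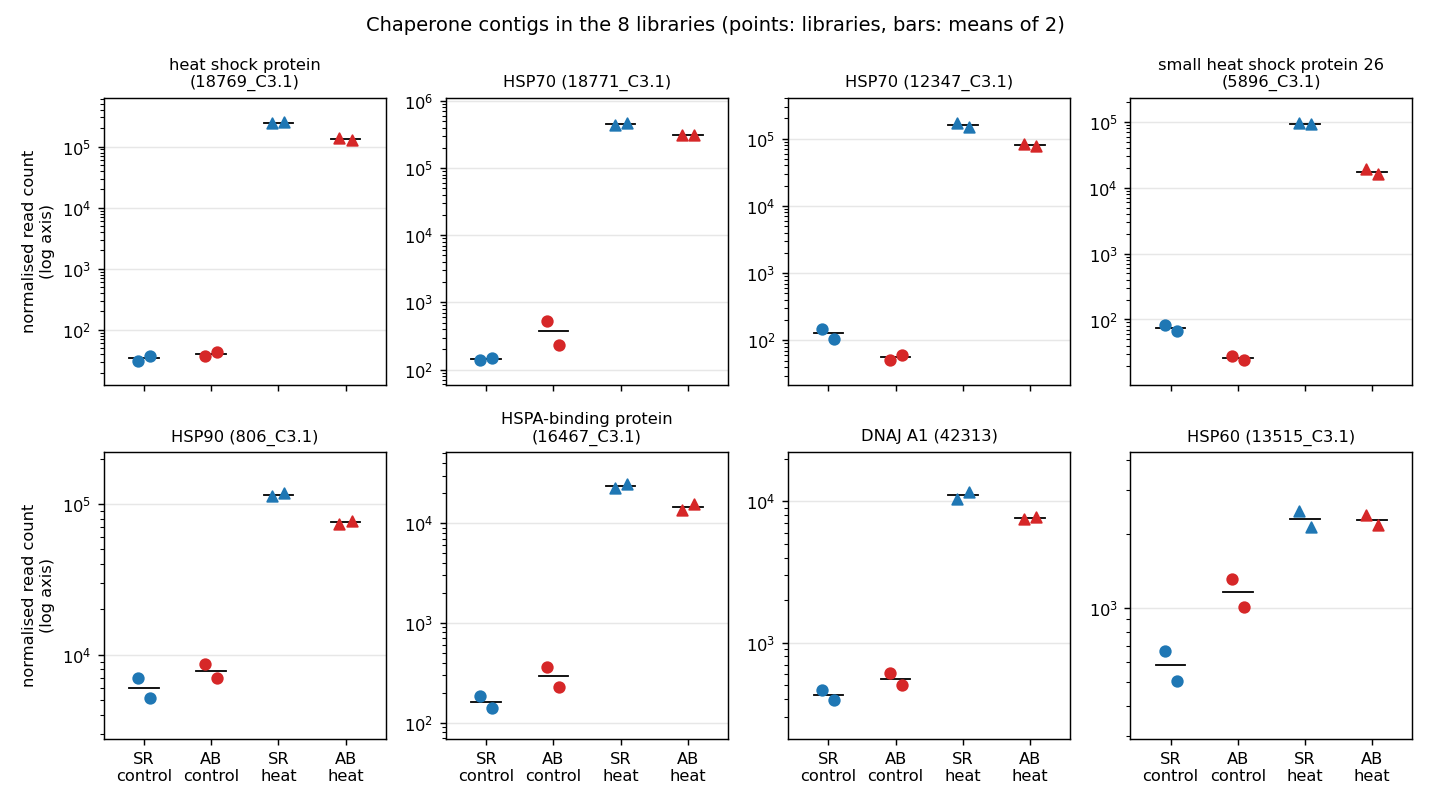
Normalised read counts (log y axes, 1 panel for each of 8 chaperone contigs) in the libraries of Slide Ranch (SR, blue) and Aliso Beach (AB, red), control (circles) and heat (triangles), with the mean of each pair as a bar. Heated Aliso Beach libraries lie below heated Slide Ranch libraries in 7 panels, and overlap them for HSP60. Small heat shock protein 26 had 19068 and 16195 against 95610 and 92819. The panels are a selection. Over all contigs 32.5% had this order and 28.4% the opposite one. Of the 6 HSP70 contigs 5 had this order and 1 the opposite one, and of the 11 in the chaperonin list 1 and 10.

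Of 25 contigs of the HSP40 and co-chaperone list, 10 rose with heat and none fell, where 4.04% of all contigs rose and 3.9% fell. Of the 10, 7 had the smaller rise at Aliso Beach, a share close to the 66.7% of all risen contigs given below. SR_contig_17338 (DNAJB1, the main inducible J-domain partner of HSP70) had 1463 and 1327 counts in Slide Ranch controls and 1077 and 1344 in Aliso Beach controls, and 266319 and 273080 against 214151 and 200222 after heat. Its difference of heat effects was -0.17 (95% interval -0.62 to 0.28), and its heated groups did not pass the test between sites (adjusted p = 0.0909 in limma). SR_contig_31772 (BAG3-like, a regulator that releases clients from HSP70) went from 455 and 464 to 101108 and 89740 at Slide Ranch and from 481 and 519 to 70207 and 68827 at Aliso Beach. Its heated level was lower at Aliso Beach by -0.45 (adjusted p = 0.0268 in limma), which was lost without Slide Ranch heat 1, Aliso Beach heat 1 or Aliso Beach heat 2 (adjusted p 0.101 to 0.13).

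SR_contig_16467_C3.1, named HSPA binding cytoplasmic cochaperone 1 (HspBP1 in mammals, which releases nucleotide from HSP70), had 183 and 140.3 counts in Slide Ranch controls and 361 and 226 in those of Aliso Beach, and heat gave 22519 and 24817 against 13471 and 15457. Aliso Beach was thus higher before heat and lower after it, with no overlap in either state. The difference of heat effects of -1.54 ± 0.30 (95% interval -2.22 to -0.86) passed in DESeq2 (adjusted p = 0.000732) and not in limma (adjusted p = 0.497). The control difference of 0.83 (adjusted p = 0.0492) and the heated one of -0.71 (adjusted p = 0.0478, limma) lay near the threshold. The heated call was lost without any 1 of the heated libraries (adjusted p 0.0992 to 0.196), and the control call without any 1 of the 8 libraries except Aliso Beach control 2 (adjusted p 0.059 to 0.271).

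Other HSP70 and HSP90 helpers rose less. SR_contig_42313 (DNAJA1) went from 462 and 392 to 10348 and 11746 at Slide Ranch and from 608 and 504 to 7555 and 7805 at Aliso Beach. Its rises were 4.69 ± 0.14 and 3.79 ± 0.14, with a heated difference of -0.52 (adjusted p = 0.0333 in limma) that was lost without any 1 heated library (adjusted p 0.0529 to 0.156). SR_contig_98140, named activator of HSP90 ATPase (AHA1, chosen after its values were seen), went from 53.1 and 56.8 to 813 and 956 at Slide Ranch and from 83.1 and 97.7 to 664 and 700.4 at Aliso Beach. It was higher at Aliso Beach in controls (0.70, adjusted p = 0.0398 in limma), a call lost without any 1 library except the heated ones of Slide Ranch (adjusted p 0.0703 to 0.139). SR_contig_63_C3.2 (DNAJA2, also chosen after its values were seen) changed by 1.42 ± 0.12 and 1.15 ± 0.12, with a difference of -0.27 (95% interval -0.65 to 0.12). SR_contig_5522, named heat shock factor-binding protein 1-like, a brake on heat shock factor, had 2437 and 2777 against 2846 and 2488 counts in controls and 3812 and 3767 against 2496 and 2851 after heat, Slide Ranch first. Only its heated Slide Ranch libraries stood above the rest, and the heated level was lower at Aliso Beach by -0.51 (adjusted p = 0.0274 in limma), which was lost without any 1 heated library (adjusted p 0.064 to 0.16).

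The chaperonin CCT, which folds actin and tubulin in the cytosol, was represented by 8 subunit contigs, and all 8 rose with heat, each by less than 1 on the log2 scale, where 4.04% of all contigs rose. The name pattern of the chaperonin list took in 3 further contigs that are not CCT subunits. One of them, SR_contig_37796, a t-complex protein 11-like contig named after its values were seen, also rose (0.83, adjusted p = 0.00118 in limma). In controls 5 of the 11, all of them CCT subunits, were higher at Aliso Beach and none lower, with a list median of 0.62 against 0.00 over all contigs tested, where 4.08% of all contigs were called higher. After heat 4 CCT subunits were higher and none lower (list median 0.51, all contigs -0.06), where 10.2% of all contigs were called higher. These counts rest on single libraries: in controls 0 passed without Slide Ranch control 2 or Aliso Beach control 1, and 2 without Aliso Beach control 2 or either heated Aliso Beach library. After heat 0 passed without Slide Ranch heat 2 or Aliso Beach heat 2, and 1 with Aliso Beach heat 1 left out. SR_contig_6631, the CCT alpha subunit, had 6236 and 5001 counts in Slide Ranch controls, 9110 and 8143 in Aliso Beach controls, and 11106 and 8998 against 11439 and 12737 after heat. In the sites' controls and after heat the Aliso Beach libraries were the higher ones, and only the controls passed (0.62, adjusted p = 0.0441 in limma), a call lost without any 1 library except the heated ones of Slide Ranch (adjusted p 0.0505 to 0.239).

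Both inducible mitochondrial chaperones ended at nearly equal levels. SR_contig_13515_C3.1, HSP60, had 667 and 505 counts in Slide Ranch controls and 1307 and 1004 in Aliso Beach controls, and 2473 and 2136 against 2384 and 2166 after heat. Its controls did not overlap and its heated libraries did. The controls differed by 0.98 (adjusted p = 0.0147 in limma, lost without Slide Ranch control 2 or Aliso Beach control 1, adjusted p 0.104 and 0.105), the heated groups by -0.02, and the difference of heat effects was -1.0 ± 0.25 (95% interval -1.56 to -0.43, adjusted p = 0.531). SR_contig_6894, the mitochondrial HSP70 named stress-70, went from 1717 and 1480 to 3788 and 3737 at Slide Ranch and from 2249 and 2057 to 3739 and 3886 at Aliso Beach. Its controls differed by 0.43 (adjusted p = 0.0649) and its heated groups by 0.02.

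In the endoplasmic reticulum list 5 of 10 tested contigs rose with heat and none fell, where 4.04% of all contigs rose and 3.9% fell. Of the 5 risen, 3 had the smaller rise at Aliso Beach. Of the 10, 3 had a difference of heat effects below 0, where 51.1% of all contigs did (list median 0.07, all contigs -0.01). After heat the list median between the sites was 0.18 (all contigs -0.06). The members GRP78 and the BiP-like contig, shown next, were below 0 and so not typical of the list. SR_contig_7836, GRP78 (the HSP70 of that organelle), went from 3188 and 3406 to 16833 and 18737 at Slide Ranch and from 4706 and 3586 to 14475 and 15267 at Aliso Beach. The heated groups did not overlap, and neither the difference of -0.57 ± 0.21 (95% interval -1.04 to -0.11) nor the heated difference of -0.26 passed (adjusted p = 0.604 and 0.256 in limma). A BiP-like contig, SR_contig_18099_C3.1, had an averaged rise of 8.74, among the largest of the named contigs, and was nearly absent from controls, with 0.87 and 0.00 counts at Slide Ranch and 0.00 and 1.68 at Aliso Beach. It had 1118 and 1086 counts in heated Slide Ranch libraries and 396 and 347 in heated Aliso Beach libraries, and the heated difference of -1.57 did not pass (adjusted p = 0.0531 in limma). The sensor kinase of that organelle, SR_contig_4259_C3.1 (eIF2-alpha kinase 3-like, PERK in mammals), went from 153 and 158 to 1533 and 1423 at Slide Ranch and from 191 and 185 to 1215 and 894 at Aliso Beach. It had a difference of heat effects of -0.78 ± 0.24 (95% interval -1.31 to -0.25).

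The smaller rise at Aliso Beach was not particular to contigs named as chaperones. Contigs that rose with the averaged heat effect were sorted by the size of that rise, a quantity that is independent of the difference of heat effects in this design; 17 of the 576 with 3 reads or fewer on average in a control group were left aside, since their fold changes depend on the pseudocount. Of the other 559, 373 (66.7%) rose less at Aliso Beach, where 51.1% of all tested contigs had a difference below 0. Among rises under 1 on the log2 scale these were 220 of 371, among rises of 1 to 2 they were 84 of 104, among rises of 2 to 4 they were 43 of 54, and among rises of at least 4 they were 26 of 30. The last 30 had a median difference of -0.59, and 15 of them had an unadjusted p under 0.05, all negative, where 4.45% of all contigs did. All contigs come from the same 8 libraries and may move together. Counts of contigs are therefore not independent tests of a site difference, here or in the lists.

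After heat most of these 30 contigs had lower counts in both Aliso Beach libraries. The heated libraries of the sites did not overlap for 26 of the 30, with Aliso Beach below in all 26, while 32.5% of all contigs had this order and 28.4% the opposite one. In limma 16 of the 30 were lower at Aliso Beach after heat and none higher, in a comparison where 7.74% of all contigs were called lower. In controls 3 were higher and 3 lower at Aliso Beach, in a comparison where 4.08% and 3.05% of all contigs were. The count of 16 became 9 without Slide Ranch heat 1, 8 without Slide Ranch heat 2, 4 without Aliso Beach heat 2 and 6 with Aliso Beach heat 1 left out, and 0 in a fit of all 16 libraries. Over the fits that left out 1 library, between 23 and 27 of the 30 rose less at Aliso Beach and the median difference lay between -0.49 and -0.70.

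**Figure D3:**
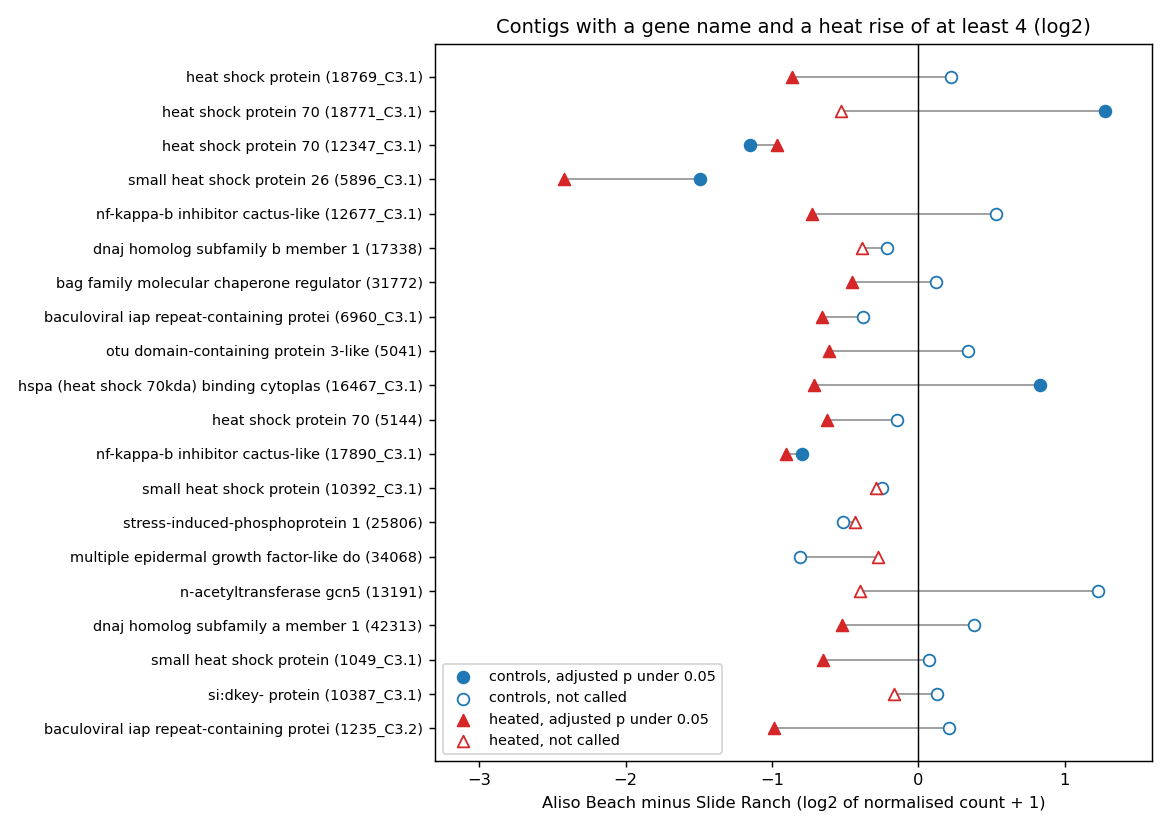
Difference between the sites (Aliso Beach minus Slide Ranch, log2 of normalised count + 1, x axis) in controls (circles) and after heat (triangles) for the 20 contigs with a gene name and an averaged log2 rise of at least 4, filled where limma's adjusted p was under 0.05 and joined by a line whose length is the difference of heat effects. All triangles lie below 0, 13 of them filled, while circles lie on both sides.

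The inhibitors of NF-kappa-B and of apoptosis were among these strong rises. SR_contig_12677_C3.1, named NF-kappa-B inhibitor cactus-like, had 117 and 118 counts in Slide Ranch controls and 141 and 205 in Aliso Beach controls, and 61836 and 52167 against 36339 and 32580 after heat. Aliso Beach was higher before heat and lower after it, with no overlap. The control difference of 0.53 did not pass (adjusted p = 0.103 in limma). The difference of heat effects was -1.25 ± 0.25 (95% interval -1.81 to -0.69; adjusted p = 0.497 in limma and 0.00512 in DESeq2), and the heated difference of -0.72 (adjusted p = 0.0219) was lost without Slide Ranch heat 1, Aliso Beach heat 1 or Aliso Beach heat 2 (adjusted p 0.0636 to 0.123). A second cactus-like contig, SR_contig_17890_C3.1 (chosen after its values were seen), had 328 and 373 against 194 and 209.6 counts in controls and 25844 and 22093 against 13051 and 12452 after heat, Slide Ranch first. It was lower at Aliso Beach in both states, by -0.79 (adjusted p = 0.00998) and -0.91 (adjusted p = 0.00286, limma), and its rises differed by -0.11 (95% interval -0.53 to 0.30). The control call was lost without Slide Ranch control 2 or Aliso Beach control 1 (adjusted p 0.0756 and 0.0822).

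Contigs with baculoviral IAP repeats, the domain of inhibitors of apoptosis that block caspases, rose at both sites. SR_contig_1235_C3.2 (repeat-containing protein 7-B) had 98.3 and 100.4 counts in Slide Ranch controls and 95.7 and 139 in Aliso Beach controls, which overlapped, and 2242 and 2790 against 1384 and 1152 after heat, which did not. Its difference of heat effects of -1.20 ± 0.29 (95% interval -1.84 to -0.56) had an adjusted p of 0.499 in limma and 0.0476 in DESeq2, and its heated difference of -0.99 (adjusted p = 0.0113 in limma) was lost without Slide Ranch heat 2 or Aliso Beach heat 2 (adjusted p 0.0752 and 0.0816). The next 3 contigs were chosen after their values were seen. SR_contig_6960_C3.1 (repeat-containing protein 3-like) went from 453 and 444 to 53960 and 54802 at Slide Ranch and from 368 and 324 to 36252 and 32827 at Aliso Beach. Its rises were 6.92 ± 0.12 and 6.64 ± 0.12, with a heated difference of -0.66 (adjusted p = 0.00699, lost without Aliso Beach heat 2, adjusted p = 0.0573, limma). SR_contig_4364, with the same repeats, went from 711 and 794 to 11819 and 11793 at Slide Ranch and from 770.1 and 961 to 8918 and 7586 at Aliso Beach. Its difference of heat effects was -0.72 ± 0.20 (95% interval -1.17 to -0.26). SR_contig_5041, named OTU domain-containing protein 3-like (a family of deubiquitinases), went from 477 and 366 to 54140 and 54828 at Slide Ranch and from 572 and 489 to 38115 and 33428 at Aliso Beach. Its difference of heat effects was -0.95 ± 0.22 (95% interval -1.43 to -0.46). The heated differences of the last 2, -0.52 (adjusted p = 0.0349) and -0.61 (adjusted p = 0.0246, limma), were lost without any 1 heated library (adjusted p 0.0591 to 0.207).

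The whole apoptosis list was mixed. Of 113 tested contigs 11 rose and 12 fell with heat, where 4.04% of all contigs rose and 3.9% fell. Of the 11 risen, 10 rose less at Aliso Beach, as did 66.7% of the 559 risen contigs above and 26 of the 30 strongest. After heat 5 were higher and 27 lower at Aliso Beach, where 10.2% and 7.74% of all contigs were (list median -0.32, all contigs -0.06). In controls 3 were higher and 9 lower, where 4.08% and 3.05% of all contigs were (list median -0.18, all contigs 0.00). The 27 became 10 without Slide Ranch heat 2, 11 without Aliso Beach heat 2 and 15 with Aliso Beach heat 1 left out, and the 9 became 0 or 1 without any 1 control library and 5 without either heated Aliso Beach library. SR_contig_3972_C3.1, named Fas ligand, was among those that fell, from 329.8 and 342 to 38.1 and 55.5 at Slide Ranch and from 267 and 287 to 79.4 and 41.5 at Aliso Beach. Its falls of -2.84 ± 0.30 and -2.25 ± 0.30 differed by 0.59 (95% interval -0.38 to 1.56).

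Signalling and clearance contigs with smaller rises had a similar order. SR_contig_7824, sequestosome 1-like, the adaptor that hands tagged proteins to autophagy, went from 1313 and 1561 to 17827 and 18917 at Slide Ranch and from 1261 and 1089 to 10566 and 10295 at Aliso Beach. Both states were lower at Aliso Beach, and the heated one passed (-0.82, adjusted p = 0.0046 in limma). SR_contig_7414, dual specificity phosphatase 10, which switches off stress-activated MAP kinases, went from 1131 and 1158 to 5559 and 6126 at Slide Ranch and from 1115 and 1089 to 3407 and 3979 at Aliso Beach, and was lower there after heat (-0.66, adjusted p = 0.00775, lost without Aliso Beach heat 1, adjusted p = 0.0603, limma). By contrast SR_contig_7953, transcription factor AP-1 (chosen after its values were seen), went from 3646 and 3517 to 10099 and 10620 at Slide Ranch and from 2388 and 3016 to 9121 and 9763 at Aliso Beach. Its rises of 1.53 ± 0.13 and 1.81 ± 0.13 differed by 0.28 (95% interval -0.15 to 0.71).

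Some contigs that are not known heat shock genes had an upward fitted change at Slide Ranch and a downward one at Aliso Beach. The 3 given here are examples, and ankyrin-2 below is another. SR_contig_3907_C3.1, mantle gene 8, had 100.1 and 90.1 counts in Slide Ranch controls and 123 and 81.7 in Aliso Beach controls, and 212 and 268 against 66.5 and 49.2 after heat. Its controls overlapped and its heated groups did not (-2.04, adjusted p = 0.00202 in limma), and it rose at Slide Ranch (1.32, adjusted p = 0.0261) while the change of -0.80 at Aliso Beach did not pass. The difference of heat effects was -2.12 ± 0.38 (95% interval -2.97 to -1.27; adjusted p = 0.497 in limma, 0.00212 in DESeq2). SR_contig_11972, perlucin 5, named for a lectin of the shell's nacre, had 153 and 76.0 against 125 and 160.0 counts in controls and 317 and 429 against 104 and 115 after heat, Slide Ranch first. It rose at Slide Ranch (1.76, adjusted p = 0.0138), had a change of -0.37 at Aliso Beach that did not pass (adjusted p = 0.589), and its difference of -2.13 ± 0.44 (95% interval -3.13 to -1.13) had an adjusted p of 0.499 in limma and 0.00512 in DESeq2. SR_contig_51900, a C1q and tumour necrosis factor-related protein, had 107 and 221 against 195 and 129 counts in controls and 388 and 332 against 95.3 and 87.4 after heat. Its changes of 1.22 at Slide Ranch (adjusted p = 0.0801) and -0.79 at Aliso Beach (adjusted p = 0.246) did not pass, and its heated groups differed by -1.96 (adjusted p = 0.00523, limma).

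The next contig differed between the sites before heat. SR_contig_146089, zinc finger MYM-type protein 3, had 27.8 and 46.5 counts in Slide Ranch controls and 200.3 and 250.0 in Aliso Beach controls, and 665 and 306 against 454 and 422 after heat. The controls did not overlap (2.60, adjusted p = 0.00384) and the heated libraries did (-0.04). It rose at Slide Ranch (3.61, adjusted p = 0.000289), the Aliso Beach change of 0.96 did not pass (adjusted p = 0.198). The difference of -2.65 ± 0.50 (95% interval -3.76 to -1.53) had an adjusted p of 0.497 in limma and 5.71e-05 in DESeq2. SR_contig_2384_C3.1, ankyrin-2, which ties membrane proteins to the cytoskeleton, went from 51.3 and 35.4 to 155 and 135 at Slide Ranch and stayed between 66.5 and 81.7 in the 4 Aliso Beach libraries. Its control difference of 0.85 did not pass (adjusted p = 0.0782 in limma). Its difference of heat effects of -1.86 ± 0.36 (95% interval -2.67 to -1.05) had an adjusted p of 0.497 in limma and 0.0476 in DESeq2, and its heated difference of -1.01 (adjusted p = 0.0251) was lost without any 1 heated library (adjusted p 0.0727 to 0.121).

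**Figure D4:**
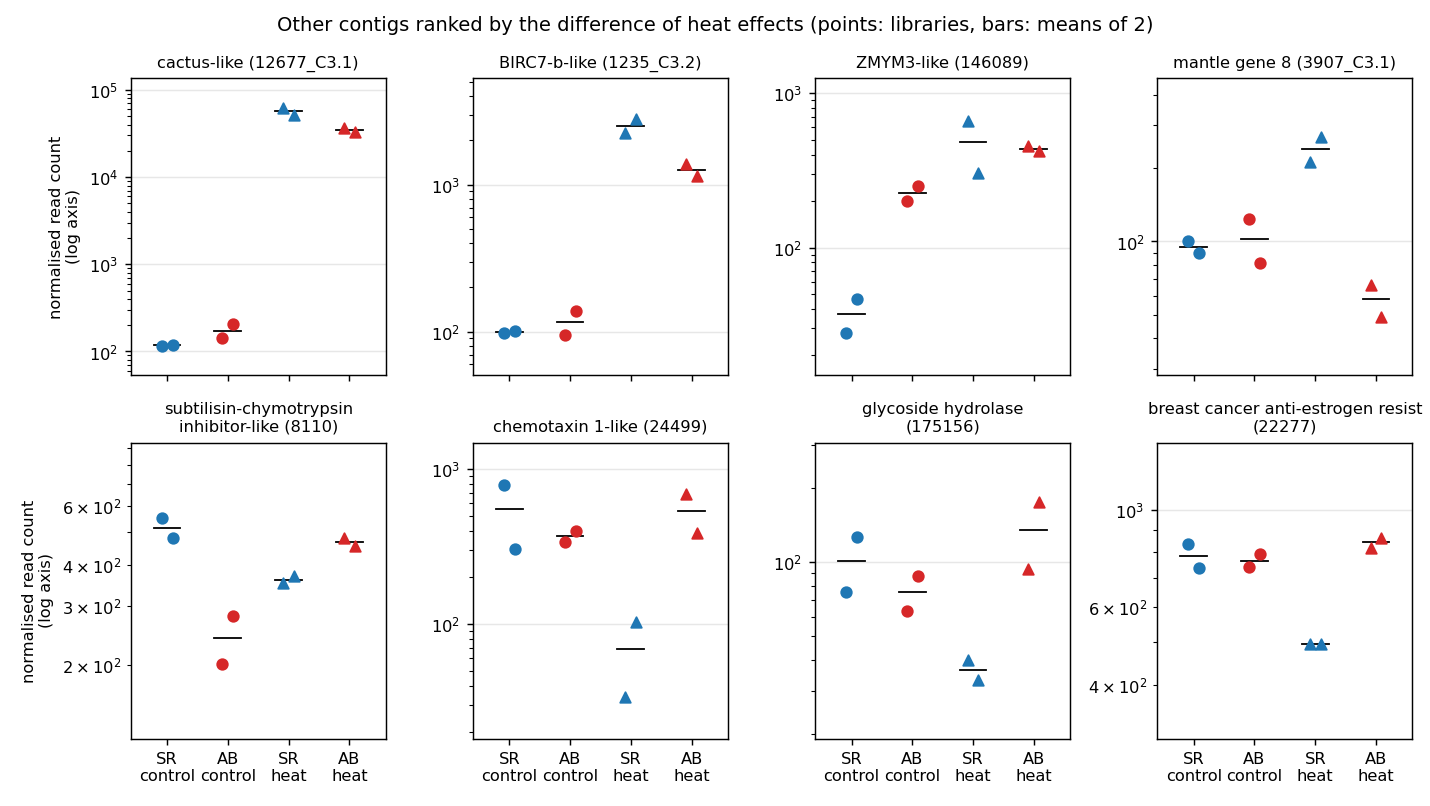
Normalised read counts (log y axes) of 8 contigs outside the chaperone lists in the libraries of Slide Ranch (SR, blue) and Aliso Beach (AB, red), control (circles) and heat (triangles), with the mean of each pair as a bar. Mantle gene 8 shows the sites apart after heat (212 and 268 against 66.5 and 49.2) and zinc finger MYM-type protein 3 in controls (27.8 and 46.5 against 200.3 and 250.0).

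The named contigs with a more positive change at Aliso Beach had moderate or low counts. SR_contig_8110, a subtilisin and chymotrypsin inhibitor, had 553 and 479.9 counts in Slide Ranch controls and 201 and 280.3 in Aliso Beach controls, and 352 and 369 against 481 and 455 after heat. The order of the sites was opposite in the 2 states. It rose at Aliso Beach (0.97, adjusted p = 0.021) and its change of -0.52 at Slide Ranch did not pass; the difference of 1.49 ± 0.26 (95% interval 0.91 to 2.07) had an adjusted p of 0.497 in limma and 0.00171 in DESeq2. The control difference of -1.11 (adjusted p = 0.00982) was lost without Aliso Beach control 1 (adjusted p = 0.0664, limma).

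SR_contig_24499, a leukocyte chemotaxin-like protein, had 791 and 306 counts in Slide Ranch controls and 33.7 and 103 after heat, while the Aliso Beach libraries had 339.8 and 401 and then 686 and 384. It fell at Slide Ranch (-3.04, adjusted p = 0.0136) and had a change of 0.47 at Aliso Beach that did not pass (adjusted p = 0.693, limma), with a wide spread between the libraries of 3 groups, and the difference was 3.51 ± 0.77 (95% interval 1.79 to 5.23) and passed in no tool (adjusted p = 0.499 in limma, 0.486 in edgeR, 0.124 in DESeq2). SR_contig_22277, breast cancer anti-estrogen resistance protein 1 (an adaptor of cell adhesion, p130Cas in mammals), had 837 and 738 against 739.7 and 793 counts in controls and 495 and 494 against 821 and 865 after heat, Slide Ranch first. Its fall at Slide Ranch (-0.67, adjusted p = 0.0223) left the heated groups apart (0.77, adjusted p = 0.00553, limma). SR_contig_175156, named glycoside hydrolase, had 75.7 and 127 against 63.1 and 87.6 counts in controls and 39.9 and 33.1 against 93.7 and 176 after heat. Its difference of 2.19 ± 0.51 (95% interval 1.04 to 3.34) had an adjusted p of 0.499 in limma and 0.0199 in DESeq2. SR_contig_12206, cartilage matrix protein, had 211 and 218 against 70.5 and 87.6 counts in controls and 132 and 76.0 against 101 and 156 after heat. Its difference of 1.76 ± 0.43 (95% interval 0.80 to 2.72) passed in neither tool (adjusted p = 0.523 in limma, 0.0511 in DESeq2).

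Contigs without a name were among those with the lowest p. SR_contig_18794_C3.1 had the lowest p for the difference of all contigs (unadjusted p = 2.32e-05, adjusted p = 0.331 in limma). Its controls had 1.74 and 1.48 counts at Slide Ranch and 8.90 and 7.58 at Aliso Beach, and its heated libraries 1275 and 1411 against 873 and 837, so the size of its rise at Slide Ranch depends on the pseudocount. SR_contig_21792 had 297 and 235 against 404 and 438 counts in controls and 1562 and 1402 against 987 and 898 after heat, Slide Ranch first. It was higher at Aliso Beach before heat (0.67, adjusted p = 0.0332) and lower after it (-0.65, adjusted p = 0.02, limma). The first call was lost without Slide Ranch control 2 or any 1 Aliso Beach library (adjusted p 0.0514 to 0.185), and the second without any 1 heated library (adjusted p 0.0562 to 0.119). In the other direction SR_contig_4381 had 2165 and 2314 counts in Slide Ranch controls, 4.45 and 26.9 in Aliso Beach controls, 1123 and 1462 in heated Slide Ranch libraries and 249 and 2562 in heated Aliso Beach libraries. Its heated Aliso Beach libraries lay on both sides of those of Slide Ranch, and its difference of 6.82 ± 1.35 (95% interval 3.79 to 9.85) had an adjusted p of 0.497 in limma and 0.0201 in DESeq2.

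Falls with heat did not show the imbalance of the rises. Of 531 contigs that fell with the averaged effect and had more than 3 reads on average in each heated group, 282 fell less at Aliso Beach. The largest named fall was that of SR_contig_610, receptor-type tyrosine phosphatase T, from 527 and 577 to 12.4 and 25.3 at Slide Ranch and from 469 and 430.2 to 18.9 and 22.9 at Aliso Beach. Its sites overlapped after heat, and the difference was 0.51 (95% interval -0.46 to 1.48). The KLF2-like transcription factor SR_contig_2247 fell from 3283 and 3086 to 704 and 643 at Slide Ranch and from 2675 and 2718 to 463 and 617 at Aliso Beach, with a difference of -0.09 (95% interval -0.57 to 0.39) whose sign turned without Aliso Beach heat 1 (0.12). SR_contig_37647, an EGF-like domain protein, fell from 424 and 348 to 42.5 and 40.9 at Slide Ranch and from 337 and 275 to 19.7 and 7.65 at Aliso Beach, where it ended lower (-1.68, adjusted p = 0.014, lost without Aliso Beach heat 2 or either heated Slide Ranch library, adjusted p 0.0521 to 0.0589, limma). SR_contig_21934, timeless protein, named for a family of clock and replication-fork proteins, fell from 259 and 216 to 39 and 33.1 at Slide Ranch and from 167 and 178 to 62.0 and 56.8 at Aliso Beach, a difference of 1.16 ± 0.30 (95% interval 0.48 to 1.85) that did not pass (adjusted p = 0.532).

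Markers of tissues and of basic cell functions also differed between the sites. Contigs named for muscle proteins had a list median of -0.33 in the difference of heat effects (all contigs -0.01): 44 of 55 were below 0, where 51.1% of all contigs were. Of them 12 had an unadjusted p under 0.05, all negative, as 4.45% of all contigs did. The name pattern also took in non-muscle myosins and filamins. No muscle contig passed the test for heat at either site alone, where 3.89% of all contigs did at Slide Ranch and 2.85% at Aliso Beach. With the averaged effect 1 was called higher, where 4.04% of all contigs were. The list's median change was 0.26 at Slide Ranch and -0.06 at Aliso Beach. The mean log2 level of the muscle contigs was 10.26 and 10.13 in Slide Ranch controls and 10.34 and 10.48 in heated Slide Ranch libraries. It was 10.43 and 10.23 in Aliso Beach controls and 10.29 and 10.06 in heated Aliso Beach libraries. After heat 12 muscle contigs were lower and 1 higher at Aliso Beach, where 7.74% and 10.2% of all contigs were. The 12 became 2 lower without Aliso Beach heat 2 and 6 lower without Slide Ranch heat 2 or Aliso Beach heat 1. SR_contig_5558, titin, the elastic spring of muscle, had 633 and 786 against 1025 and 796 counts in controls and 678 and 1058 against 524 and 405 after heat, Slide Ranch first, with a difference of -1.23 ± 0.33 (95% interval -1.98 to -0.49; adjusted p = 0.532 in limma). Whether the amount of muscle in the animals has a part in the result was not tested.

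Of 155 contigs of the mantle, shell and mucus list 14 had an unadjusted p under 0.05 with a more negative change at Aliso Beach and 3 with a more positive one, where 4.45% and 3.23% of all contigs did (list median -0.13, all contigs -0.01). For 153 nervous system contigs these counts were 6 and 1, which are smaller shares than over all contigs (list median -0.17). After heat 21 mantle contigs were lower and 7 higher at Aliso Beach, where 7.74% and 10.2% of all contigs were. The 21 became 10 without Slide Ranch heat 2, 12 without Aliso Beach heat 2 and 8 with Aliso Beach heat 1 left out, and the 7 became 3 or 4 without these.

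Mitochondrial respiration and DNA replication leaned towards Aliso Beach. Of 61 respiration contigs 10 had an unadjusted p under 0.05 with a more positive change at Aliso Beach and 3 with a more negative one, where 3.23% and 4.45% of all contigs did (list median 0.13). After heat 25 were higher at Aliso Beach and 2 lower (list median 0.39), where 10.2% of all contigs were called higher, and the 25 became 11 without Slide Ranch heat 2, 10 with Aliso Beach heat 2 left out and 14 with Aliso Beach heat 1 left out. SR_contig_600_C3.1, an NADH dehydrogenase of respiratory complex I, had 601 and 550.0 against 645 and 732 counts in controls and 502 and 485 against 1040 and 1053 after heat, Slide Ranch first. Aliso Beach was higher in both states, and the heated difference passed (1.08, adjusted p = 0.00148 in limma). It rose at Aliso Beach (0.61, adjusted p = 0.0431), had a change of -0.22 at Slide Ranch, and its difference of 0.83 ± 0.19 (95% interval 0.41 to 1.24) did not pass (adjusted p = 0.499).

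Of 106 contigs in the replication and cell cycle list 34 were higher at Aliso Beach in controls and none lower (list median 0.46), where 4.08% of all contigs were called higher. After heat 52 were higher and 3 lower (list median 0.68), where 10.2% and 7.74% of all contigs were. The control count became 7 without Slide Ranch control 2 or Aliso Beach control 1, and the heated count became 31 without Slide Ranch heat 2 or Aliso Beach heat 2 and 33 with Aliso Beach heat 1 left out. The pattern also takes in 20 contigs named RNA-directed DNA polymerase, of which none passed in controls; the other 86 had a median of 0.57 in controls and 0.93 after heat. In the difference of heat effects 12 of the 106 had an unadjusted p under 0.05 with a more positive value at Aliso Beach and 1 with a more negative one, where 3.23% and 4.45% of all contigs did. SR_contig_17852, PCNA-interacting partner-like, which acts at replication forks in mammals, had 427 and 287 against 428 and 495 counts in controls and 401 and 333 against 858 and 878 after heat, and rose at Aliso Beach (0.91, adjusted p = 0.0434 in limma).

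Part of the ovary and egg markers differed between the sites. Of 39 contigs 12 were higher at Aliso Beach in controls, where 4.08% of all contigs were, and 22 after heat, where 10.2% were. None was lower (list medians 0.52 and 0.61), while the median difference of heat effects was 0.06. The 12 became 5 with Slide Ranch control 1 left out, 2 without Slide Ranch control 2 or Aliso Beach control 1 and 4 without Aliso Beach control 2, and the 22 became 6 without Slide Ranch heat 2, 5 with Aliso Beach heat 2 left out and 10 with Aliso Beach heat 1 left out. SR_contig_446, vitellogenin, the yolk protein (chosen after its values were seen), had 7757 and 5645 counts in Slide Ranch controls, 11078 and 4209 in heated Slide Ranch libraries, 60386 and 60542 in Aliso Beach controls and 57230 and 62423 in heated Aliso Beach libraries. All 4 Aliso Beach libraries stood above all 4 of Slide Ranch, by 3.19 in controls (adjusted p = 0.00145) and 3.13 after heat (adjusted p = 0.00107, limma). Whether sex or ripeness of the animals has a part in the comparison of the sites was not tested.

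**Figure D5:**
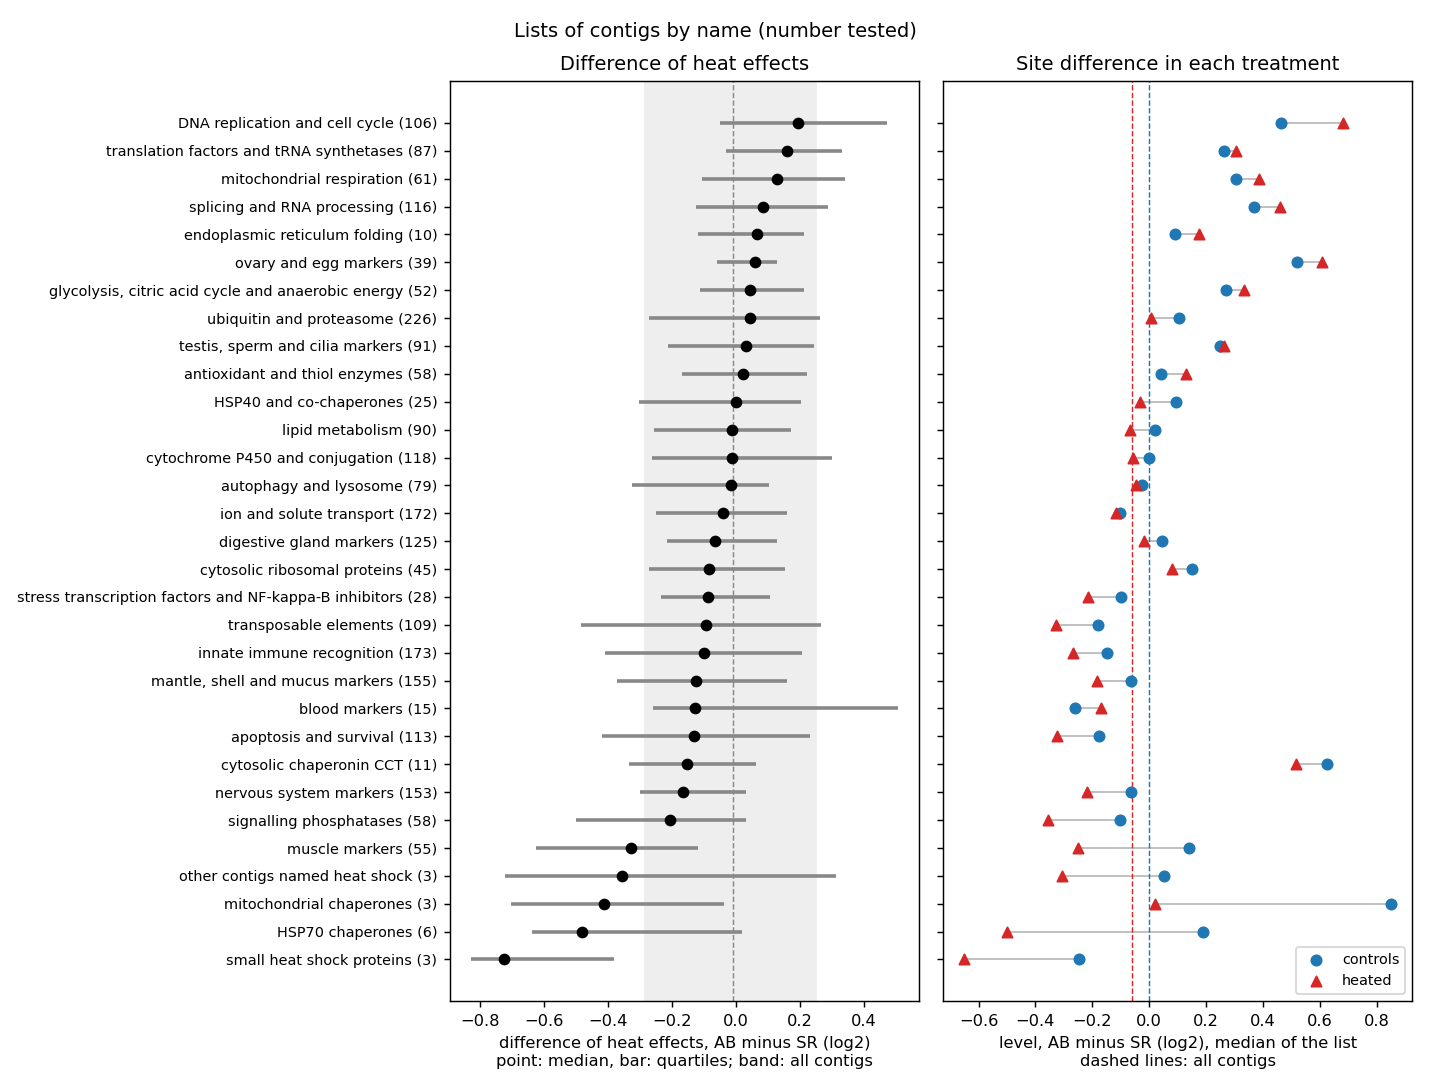
Left, the difference of heat effects (Aliso Beach minus Slide Ranch, log2, x axis) of each list of contigs set by name, with its median (point) and quartiles (bar) over the quartiles of all tested contigs (band), and right, the list's median difference between the sites in controls (circles) and after heat (triangles), with all contigs as dashed lines. Medians outside the band on the left are those of small heat shock proteins (-0.72), HSP70 (-0.48) and mitochondrial chaperones (-0.41). Those of other contigs named heat shock (-0.36) and muscle markers (-0.33) lie outside it too. On the right the replication list lies above all contigs in controls (0.46) and after heat (0.68).

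The other southern and northern site gave the same contrast in libraries not used above, La Jolla minus Pigeon Point, where the libraries of a group lay much farther apart. In limma 0 contigs passed there (0.0% of 14462), 39 had an unadjusted p under 0.05 (0.27%), and edgeR and DESeq2 also made 0 calls, with 47 and 77 contigs at an unadjusted p under 0.05. Of the 30 contigs with averaged rises of at least 4 at Aliso Beach and Slide Ranch, 19 had a smaller rise at La Jolla than at Pigeon Point. Of all 559 risen contigs 347 did, and 50.3% of all contigs had a difference below 0. Among averaged rises under 1 these were 238 of 371, among rises of 1 to 2 they were 57 of 104, and among rises of 2 to 4 they were 33 of 54. The share thus did not grow with the size of the rise, as it did at Aliso Beach. The median La Jolla minus Pigeon Point difference of the 30 was -0.12, against -0.59 for Aliso Beach minus Slide Ranch, and its standard errors ran from 0.40 to 1.87. Single contigs, given here as examples chosen after their values were seen, lay near or far from the values at Aliso Beach and Slide Ranch, and none passed. The La Jolla minus Pigeon Point difference was -1.08 ± 1.75 (SE) for SR_contig_18769_C3.1, -1.69 ± 0.98 for HSP70 contig SR_contig_18771_C3.1, -1.03 ± 1.21 for small heat shock protein 26 (SR_contig_5896_C3.1) and -1.04 ± 0.93 for the cactus-like inhibitor SR_contig_12677_C3.1. For Aliso Beach minus Slide Ranch these were -1.09, -1.81, -0.93 and -1.25. It was -0.35 ± 0.44 for the HSP70-binding co-chaperone SR_contig_16467_C3.1, -0.28 ± 0.43 for the OTU domain contig SR_contig_5041, -0.14 ± 0.43 for DNAJA1 (SR_contig_42313), -0.37 ± 0.51 for HSP90 (SR_contig_806_C3.1) and 0.48 ± 1.87 for the IAP repeat contig SR_contig_1235_C3.2. Their values for Aliso Beach minus Slide Ranch were -1.54, -0.95, -0.90, -1.0 and -1.20. Among contigs outside the strong rises, the zinc finger contig SR_contig_146089 had -0.07 ± 2.27 in place of -2.65, perlucin 5 (SR_contig_11972) 1.58 ± 1.56 in place of -2.13, and NADH dehydrogenase SR_contig_600_C3.1 -0.46 ± 1.28 in place of 0.83. Of the 35 contigs that DESeq2 called in the main contrast, 20 had the same sign at La Jolla and Pigeon Point.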

How the data were processed

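RNA sequencing libraries (100-base paired reads, Illumina) of whole snails were grouped by the site and treatment in their labels. The authors deposited 1 table of signal values, read counts per assembled contig divided by a size factor per library. CASAVA and DESeq are named in the submitters' processing notes. No source used here gives the assembler, mapper or annotation steps. Contig identifiers begin with SR, the letters that titles use for Slide Ranch, and 6599 of 15903 contigs carry no name. Values were whole multiples of 1 read within 0.01 read, so reads were recovered from them for edgeR and DESeq2.

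The main model was limma 3.58.1 under R 4.3.3 on log2(value + 1), using its trend option, with 1 mean for each site and treatment and the 8 libraries of the sites compared. Contigs with a mean of at least 10 were tested, and p-values were adjusted by Benjamini-Hochberg over all of them. 95% intervals hold for 1 contig at a time, and intervals and p-values cover only the spread between libraries. La Jolla and Pigeon Point were fitted alone in the same way. Alternatives were edgeR 4.0.16 (quasi-likelihood), DESeq2 1.42.0, pseudocounts of 0.5 and 5, no filter or a mean of at least 50, TMM scaling, fits with all 16 or with 12 libraries, replicate blocks, and leaving out each library. The steps were tested on simulated reads.

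The libraries, the lists of contigs (set by name patterns) and the rule for named contigs were chosen with earlier results of these data known. Contigs named in the text averaged at least 50 and had an informative name. They were, for the difference of heat effects, those with adjusted p under 0.05. As none passed, they were the 6 with the smallest unadjusted p in each direction (2 without a name). Further contigs were the 8 largest rises and falls with heat and up to 2 per list by smallest p of the difference. Heat shock protein contigs were also taken, apart from the contig with another heat shock name that was not called for heat. Contigs outside this rule are marked as chosen after their values were seen. Figures were drawn with matplotlib 3.10.9.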

Additional observations from a re-analysis of the deposited data

How the results depend on the processing

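For the difference of heat effects, pseudocounts, filters, TMM scaling, edgeR, the fits of 12 and 16 libraries and a replicate block shared by the sites also gave 0 calls, DESeq2 gave 35, and leaving out 1 library gave 0 to 3. DESeq2 called 657 contigs for heat at Aliso Beach and 1541 between controls (863 higher and 678 lower). With all 16 libraries in the fit, 115 contigs were called for heat at Aliso Beach, 139 at Slide Ranch and 233 for the average. Between controls 49 were called and between heated groups 118. In the same order the main fit gave 406, 554, 1132, 1017 and 2565. A fit of 12 libraries left out replicate 1 of each Pigeon Point and La Jolla group. It gave 408, 557, 1126, 1026 and 2580. Without 1 library the counts ran from 204 to 418 at Aliso Beach, 240 to 471 at Slide Ranch, 660 to 969 for the average, 185 to 1094 between controls and 956 to 2490 between heated groups. La Jolla minus Pigeon Point gave 0 throughout, except for the replicate block within site. The cause of these shifts was not tested.

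Libraries of a site do not pair by replicate number: correlations of same-numbered deviations ran from -0.055 to 0.116. With a replicate block within site, 1 contig was called for the difference of heat effects, 1 for La Jolla minus Pigeon Point, 334 between controls and 950 between heated groups, and of the 30 strongest rises 5 were called lower at Aliso Beach after heat.

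Among named contigs, 9 values of the difference of heat effects changed sign, all for contigs whose difference was near 0. These were SR_contig_12347_C3.1 without Slide Ranch control 1 (-0.055, the range over single left-out libraries being -0.055 to 0.43), SR_contig_2247 without Aliso Beach heat 1 (0.12, range -0.30 to 0.12), SR_contig_10392_C3.1 without Slide Ranch control 2 (0.18), Slide Ranch heat 1 (0.10), Aliso Beach heat 1 (0.0011) or Aliso Beach control 2 (0.14), with a range of -0.26 to 0.18, and vitellogenin (SR_contig_446) without Slide Ranch control 2 (0.17), Slide Ranch heat 1 (0.64) or Aliso Beach heat 1 (0.00068), with a range of -0.76 to 0.64. With 2 libraries per group the median 95% interval reached 0.70 (log2) to either side before adjustment. Smaller differences are beyond what most contigs can show, and after adjustment larger ones did not pass either. Where 1 library is left in a group its spread is taken from the other groups.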

Other observations

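In several lists of basic cell functions more contigs were called higher than lower at Aliso Beach after heat, while most of their members did not pass. Over all contigs 10.2% were called higher and 7.74% lower. Of 116 splicing and RNA processing contigs 43 were higher and 2 lower there in limma (list median 0.46), of 87 translation factors and tRNA synthetases 28 and 1 (0.31), and of 52 contigs of glycolysis, the citric acid cycle and anaerobic energy 18 and 1 (0.33). The 43 became 11 without Slide Ranch heat 2, 9 without Aliso Beach heat 2 and 22 with Aliso Beach heat 1 left out. The 28 became 17 without Slide Ranch heat 1, 9 without Slide Ranch heat 2, 7 without Aliso Beach heat 2 and 11 with Aliso Beach heat 1 left out, and the 18 became 4, 3 and 6 without the last 3 of these. In the difference of heat effects the medians of these lists were 0.08, 0.16 and 0.04. SR_contig_2183, translation initiation factor 4E, which binds the cap of messenger RNA, had 1385 and 1269 counts in Slide Ranch controls, 1688 and 1658 in Aliso Beach controls, and 1077 and 1099 against 1974 and 2059 after heat. Aliso Beach was higher in both states, and the heated difference of 0.89 passed (adjusted p = 0.00186 in limma), while the difference of heat effects of 0.55 ± 0.16 (95% interval 0.19 to 0.92) did not (adjusted p = 0.532).

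In the innate immune recognition list 21 of 173 contigs were lower and 7 higher at Aliso Beach after heat, where 7.74% and 10.2% of all contigs were (list median -0.27, all contigs -0.06). The 21 became 12 without Slide Ranch heat 1 or Aliso Beach heat 1, and the 7 became 3 without Slide Ranch heat 2, 2 without Aliso Beach heat 2 and 4 with Aliso Beach heat 1 left out. Perlucin 5 has a second contig, SR_contig_23435, with 166 and 261 counts in Slide Ranch controls, 493 and 427 in Aliso Beach controls, and 462 and 456 against 391 and 447 after heat. It rose at Slide Ranch (1.14, adjusted p = 0.0173 in limma) to about the level that Aliso Beach had in both states, and its difference of heat effects was -1.27 ± 0.30 (95% interval -1.94 to -0.60).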
